A study of Mus musculus with 12 samples.

Results

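Transcript levels of 7 genes of methyl group metabolism were followed in fat cells and in the other cells of adipose tissue from 2 mouse depots. The genes were Mat2a and Mat2b, which make the methyl donor, Inmt, Nnmt and Pemt, which spend it on small molecules and phospholipids, Ahcy, which clears the product, and Aox1, which oxidises what Nnmt makes. They are 7 of the 24890 features in the deposited tables. The members were chosen by measured values: Inmt was selected on its FPKM, which were lower in IAT adipocytes than in EAT adipocytes, and the other 6 were added as enzymes around the same reactions with their values known. For that reason the depot values in adipocytes, and how they differ from those in SVCs, are given below for these genes as a description with no test. The same holds for Inmt wherever its adipocyte values are set against SVCs, since those values selected it.

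The mice were male C57BL/6J animals aged 18 weeks on normal chow (NCD), with no treatment. Collagenase I had been used to separate inguinal adipose tissue (IAT), a subcutaneous depot, and epididymal adipose tissue (EAT), a visceral depot, into adipocytes and stromal vascular cells (SVCs). There were 3 libraries each of IAT adipocytes, EAT adipocytes, IAT SVCs and EAT SVCs, 12 in all. Whether mice were pooled is not said in the labels, so the p-values measure only the spread between these libraries, which may be technical. All groups share strain, sex, age and diet.

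S-adenosylmethionine (SAM) is the methyl donor of nearly all cellular methylation. Methionine adenosyltransferase makes it from methionine and ATP, a methyltransferase moves the methyl group to its substrate, and the S-adenosylhomocysteine (SAH) left over inhibits most methyltransferases until AHCY splits it into adenosine and homocysteine. In white fat, NNMT is known as an abundant enzyme that methylates nicotinamide, which draws on both SAM and the precursors of NAD, and lowering Nnmt in fat and liver protects mice from diet-induced obesity. INMT methylates tryptamine and other amines and is best known from lung.

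Values are in FPKM (fragments mapped, scaled to transcript length and to library depth), a scale on which genes can be compared per length, and differences are of log2(FPKM + 1) ± SE, IAT minus EAT or adipocyte minus SVC. Of all features, 13175 reached 1 FPKM in at least 3 libraries and were tested with limma, and all 7 genes were among them. An estimated 14.1 M to 24.6 M gene fragments lay behind a library, a rough figure taken from the confidence bounds of the values. Across features, which are no replicates of each other, libraries of a group correlated at r = 0.990 or more. The lowest r was that between EAT adipocyte replicates 1 and 2. Marker genes went with the labels: the summed level of 8 adipocyte genes was 22788 to 30784 FPKM in the 6 adipocyte libraries, against 104 to 267 FPKM in the 6 SVC libraries.

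The genes lie on 5 chromosomes of mm10 (GRCm38), with 1 locus each in the tables. Inmt was given at chromosome 6, 55170626 to 55174990, Mat2a at chromosome 6, 72432798 to 72439558, and Nnmt at chromosome 9, 48591889 to 48605077, all on the minus strand. Pemt (59970613 to 60046489) and Mat2b (40679313 to 40695203) were on chromosome 11, Ahcy on chromosome 2 (155059311 to 155074497), also on the minus strand, and Aox1 on the plus strand of chromosome 1 (58029968 to 58106410). RefSeq (GRCm38.p6) gave a promoter window for 6 of them, not for Nnmt. The 60 bases before the first annotated start are shown for the gene that differed most between groups, Inmt (chr6:55175044-55175103, minus strand), for the one that differed least, Mat2a (chr6:72439559-72439618, minus strand), and for Aox1 (chr1:58029871-58029930, plus strand), with the motif TATAAA in capitals.
Inmt: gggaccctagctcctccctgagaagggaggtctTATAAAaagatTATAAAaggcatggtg
Mat2a: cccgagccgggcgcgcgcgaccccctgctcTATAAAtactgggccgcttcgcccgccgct
Aox1: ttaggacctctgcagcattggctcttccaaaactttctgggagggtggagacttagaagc
Inmt held 2 copies of TATAAA, 80 and 69 bases before the RefSeq start. Its 300-base window, 250 bases before to 50 after that start, had 0 CpG dinucleotides, as did 5.43% of the 32851 windows in the table. Mat2a held 1 copy, 32 bases before the start, in a window with 34 CpG, more than 92.3% of windows had. The Aox1 window had no TATAAA and 7 CpG, which is the median of all windows. TATAAA, read on either strand (TTTATA), was in 13.6% of all windows. These matches describe the letters and say nothing of use.

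The levels fell into 3 kinds. Inmt was highest in SVCs and by far lowest in IAT adipocytes, Nnmt, Pemt and Aox1 were adipocyte transcripts in both depots, and Mat2a, Mat2b and Ahcy varied least. The highest group mean was 33.6 times the lowest for Inmt, 25.0 times for Nnmt, 8.18 times for Aox1 and 7.54 times for Pemt. For Ahcy it was 2.01 times, for Mat2b 1.35 times and for Mat2a 1.22 times.

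**Figure D1:**
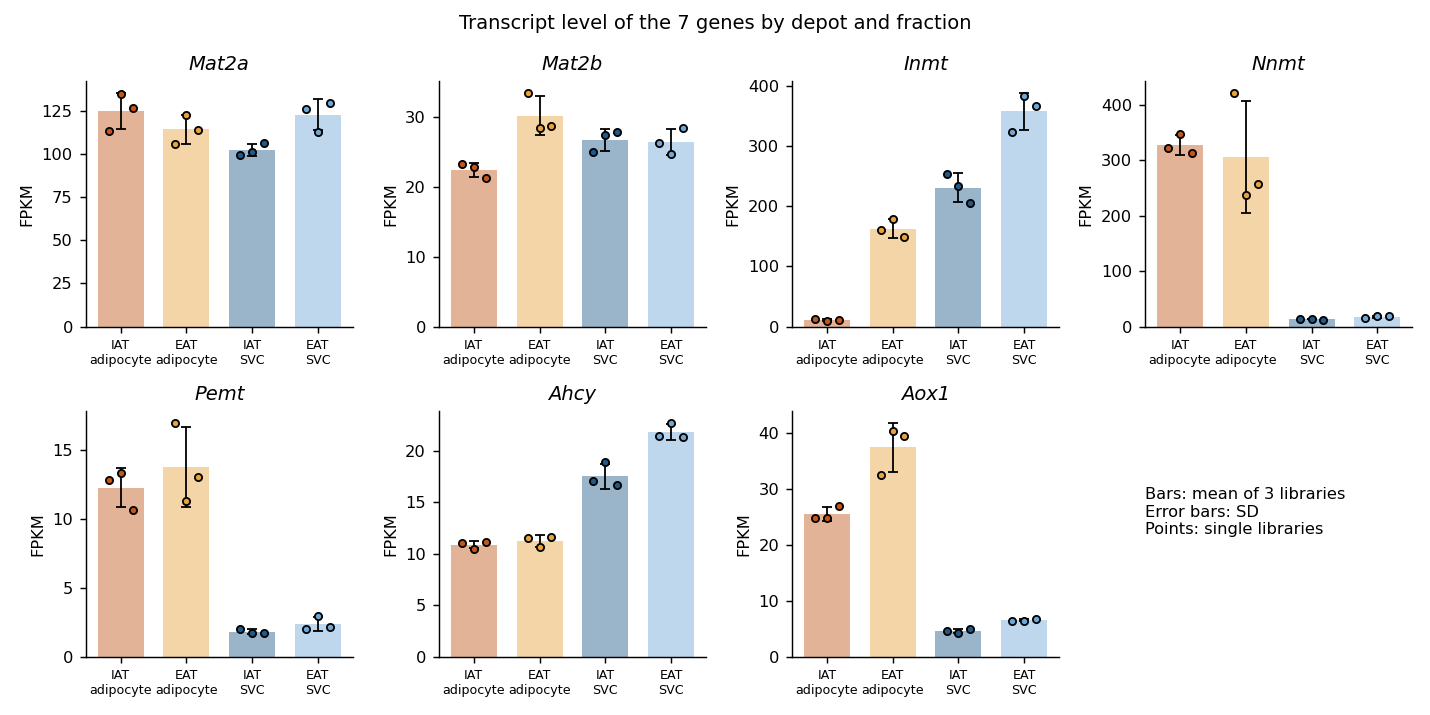
FPKM of each gene in every library (points) with the group mean (bars) and SD (error bars), on an axis of its own per gene, for IAT adipocytes, EAT adipocytes, IAT SVCs and EAT SVCs, 3 libraries each. Inmt sits at 9.77 to 11.9 FPKM in IAT adipocytes and at 148 FPKM or more in every other library, while Mat2a stays between 99.5 and 134 FPKM throughout.

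Mat2a encodes the catalytic subunit of the SAM synthetase found outside the liver. It had 113, 134 and 126 FPKM in IAT adipocytes and 106, 123 and 114 FPKM in EAT adipocytes. IAT SVCs had 99.5, 101 and 106 FPKM and EAT SVCs 126, 113 and 129 FPKM. Ordered by mean, from IAT adipocytes (125 ± 10.6 FPKM, SD, n = 3) over EAT SVCs and EAT adipocytes to IAT SVCs (102 ± 3.38), each group overlapped the next, while the first and the last did not overlap. Mat1a, the liver form, was listed at 0 in all 12 libraries.

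Mat2b encodes the regulatory subunit that binds MAT2A. It had 23.3, 22.9 and 21.3 FPKM in IAT adipocytes and 33.6, 28.5 and 28.8 FPKM in EAT adipocytes, groups that did not overlap (log2 difference -0.41 ± 0.0825). IAT SVCs had 25.0, 27.5 and 27.9 FPKM and EAT SVCs 26.4, 24.8 and 28.5 FPKM, which overlapped. The ratio of Mat2a to Mat2b was 5.55 ± 0.598 in IAT adipocytes and 3.80 ± 0.588 in EAT adipocytes, against 3.82 ± 0.151 in IAT SVCs and 4.63 ± 0.130 in EAT SVCs (SD, n = 3 each). Transcripts of the catalytic subunit therefore exceeded those of the regulatory one in every group, by the widest margin in IAT adipocytes.

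Inmt encodes indolethylamine N-methyltransferase. It had 11.9, 9.77 and 10.2 FPKM in IAT adipocytes and 159.9, 179 and 148 FPKM in EAT adipocytes. In SVCs it had 254, 233 and 205 FPKM in IAT and 322, 382 and 367 FPKM in EAT. All 4 groups were separate: EAT SVCs (357 ± 31.1) stood 1.55 times above IAT SVCs (231 ± 24.3), these 1.42 times above EAT adipocytes (162 ± 15.5), and these 15.3 times above IAT adipocytes (10.6 ± 1.12; SD, n = 3 each). The adipocyte depot difference of -3.81 ± 0.108 on the log2 scale, part of what chose this gene, was larger in size than that of 99.9% of features. The confidence bounds were narrow beside it, at 1.79% to 13.1% from the values of Inmt, with an estimated 233 to 12439 fragments behind a value.

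Nnmt encodes nicotinamide N-methyltransferase. It had 322, 348 and 313 FPKM in IAT adipocytes and 422, 237 and 257 FPKM in EAT adipocytes. In SVCs it had 13.2, 13.5 and 12.7 FPKM in IAT and 15.7, 18.6 and 19.3 FPKM in EAT. The adipocyte groups overlapped (328 ± 18.0 FPKM in IAT, 305 ± 101 FPKM in EAT), and the wide spread in EAT came from replicate 1, at 1.70 times the mean of the others. The same library was 1.39 times the others for Pemt and 0.811 times for Aox1. Its adipocyte marker sum was 29411 FPKM, against 22788 and 24402 FPKM in the others of its group. The largest part of that sum was Cfd, at 15269 ± 3463 FPKM in EAT adipocytes (SD, n = 3). The FPKM of all features also summed higher in this library, to 526360, against 429972 and 445202 in the others. The part of these sums in its values was not tested.

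Pemt encodes the enzyme that methylates phosphatidylethanolamine stepwise to phosphatidylcholine, best known from liver. It had 12.9, 13.3 and 10.7 FPKM in IAT adipocytes and 17.0, 11.3 and 13.0 FPKM in EAT adipocytes. Its level in SVCs was 2.02, 1.75 and 1.71 FPKM in IAT and 2.01, 2.99 and 2.12 FPKM in EAT. The depots overlapped in both fractions. With 25.6 to 361 estimated fragments behind a value and bounds 10.5% to 39.6% away, Pemt was the least precisely measured of the 7.

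Ahcy encodes S-adenosylhomocysteine hydrolase. It had 11.05, 10.5 and 11.2 FPKM in IAT adipocytes and 11.5, 10.6 and 11.6 FPKM in EAT adipocytes, which overlapped. In SVCs it had 17.1, 18.9 and 16.6 FPKM in IAT and 21.5, 22.7 and 21.3 FPKM in EAT, with no overlap. A near-copy, Gm4737 on chromosome 16, shares 93.2% of its 31-base words with the Ahcy transcripts, so how reads were split between them is uncertain. Gm4737 was at 26.2% to 35.6% of the Ahcy value, and the sum of both was 14.0 ± 0.510 FPKM in IAT adipocytes and 14.9 ± 1.01 FPKM in EAT adipocytes, against 23.1 ± 1.97 FPKM in IAT SVCs and 27.8 ± 0.890 FPKM in EAT SVCs. The order of the groups was the same with and without the copy. On the opposite strand, 317 bases of Ahcy overlap Gm45609 and 508 bases of Mat2a overlap Particl in GENCODE vM21. Whether the libraries kept strand is not given in the sources used here, so reads there cannot be told apart.

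Aox1 encodes an aldehyde oxidase, a molybdenum enzyme that turns N1-methylnicotinamide, the product of NNMT, into pyridones. It had 24.8, 24.8 and 26.9 FPKM in IAT adipocytes and 32.5, 40.4 and 39.6 FPKM in EAT adipocytes. In SVCs it had 4.55, 4.18 and 5.01 FPKM in IAT and 6.47, 6.42 and 6.83 FPKM in EAT. All 4 groups were separate, in the order EAT adipocytes, IAT adipocytes, EAT SVCs, IAT SVCs, with steps of 1.47, 3.88 and 1.43 times. Within each fraction IAT was the lower depot.

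**Figure D2:**
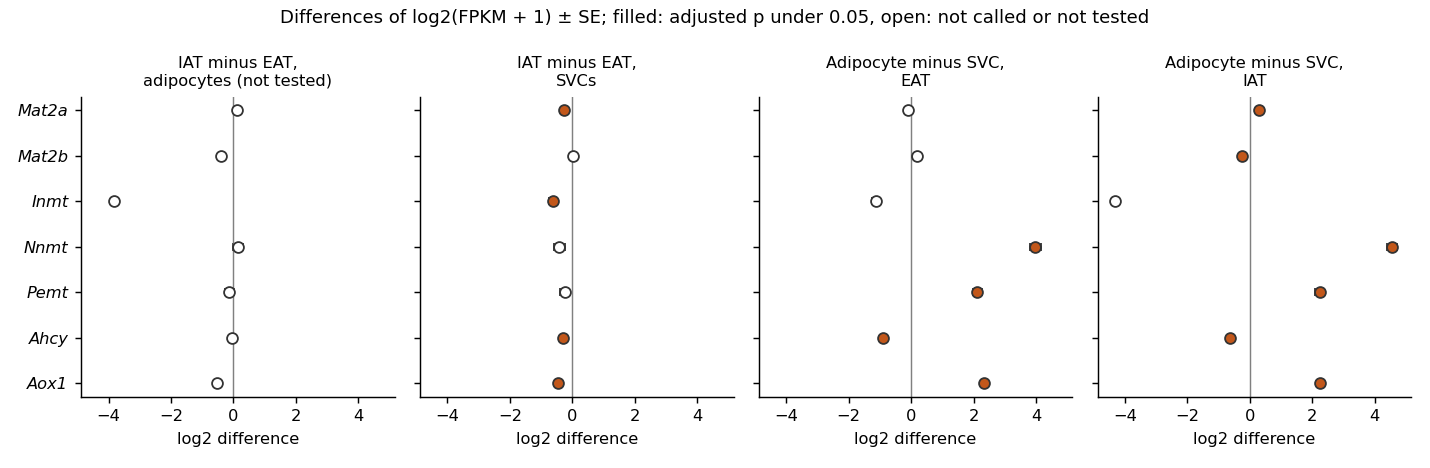
Log2 differences of log2(FPKM + 1) with their SE for each gene, IAT minus EAT in adipocytes and in SVCs, and adipocyte minus SVC in EAT and in IAT, with filled points for calls at an adjusted p under 0.05 and open points for values not called or not tested. Inmt lies at -3.81 for depot in adipocytes, where no other of the 7 passes -0.53, and Nnmt at 3.98 and 4.54 for fraction in EAT and in IAT.

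Setting the fractions against each other shows where in the tissue each transcript is held. In IAT, Nnmt was 25.0 times higher in adipocytes than in SVCs (log2 difference 4.54 ± 0.168, adjusted p = 3.78e-11), Pemt 6.73 times (2.23 ± 0.143, adjusted p = 8.50e-09) and Aox1 5.57 times (2.25 ± 0.0894, adjusted p = 7.26e-11). Ahcy in adipocytes was 62.1% of its level in SVCs (-0.64 ± 0.0687, adjusted p = 1.56e-06). Inmt, described with no test, was at 4.60% (-4.32 ± 0.108). Mat2a was slightly higher in adipocytes (0.28 ± 0.0871, adjusted p = 0.00934) and Mat2b slightly lower (-0.24 ± 0.0825, adjusted p = 0.0157), a call lost without IAT adipocyte replicate 3 (adjusted p = 0.0656) or IAT SVC replicate 3 (0.0574). Of the 6 tested genes, 4 were called higher and 2 lower, against 29.8% called higher and 53.9% called lower of the 13175 features, 83.7% in all. The groups did not overlap for 6 of these 6, nor for 88.3% of features. Called with at least a 2-fold difference were 3 of them (Nnmt, Pemt and Aox1), and 40.3% of features. Since most transcripts differ between the fractions, the number of calls is near the background.

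In EAT the adipocyte-rich transcripts were the same 3. Nnmt was 17.1 times higher in adipocytes (3.98 ± 0.168, adjusted p = 1.37e-10), Pemt 5.80 times (2.12 ± 0.143, adjusted p = 1.37e-08) and Aox1 5.70 times (2.34 ± 0.0894, adjusted p = 5.35e-11). Ahcy fell to 51.5% of its SVC level (-0.90 ± 0.0687, adjusted p = 5.05e-08). Inmt, again with no test, was at 45.5% of its SVC level (-1.13 ± 0.108). Mat2a (-0.10 ± 0.0871, adjusted p = 0.278) and Mat2b (0.18 ± 0.0825, adjusted p = 0.0552) did not pass the test, though Mat2b did without EAT adipocyte replicate 2 (adjusted p = 0.0375) or EAT SVC replicate 3 (0.0332). So of 6 tested, 3 were called higher and 1 lower, beside 31.1% and 52.7% of all features, 83.8% together. Groups did not overlap for 4 of 6 and for 83.1% of features. Nnmt, Pemt and Aox1 were called with at least a 2-fold difference, as were 40.9% of features. The median of all features was -0.34 for fraction in IAT and -0.31 in EAT, and scaling each library by the median of ratios moves it to about 0. Under that scaling the difference of Mat2a in EAT was 0.28 (adjusted p = 0.00606) and that of Mat2b in IAT 0.17 (adjusted p = 0.105), both on the other side of 0. It also turns the 3921 higher and 7107 lower calls in IAT into 5471 and 5463, and the 4093 and 6948 in EAT into 5503 and 5473. Both fraction contrasts and both depot contrasts share libraries, and are therefore not independent of each other.

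The depot comparison in SVCs asked whether the same genes differ between the 2 fats outside adipocytes. Inmt was lower in IAT, at 231 ± 24.3 FPKM in IAT SVCs and 357 ± 31.1 FPKM in EAT SVCs (-0.63 ± 0.108, adjusted p = 0.00048). Aox1 (-0.44 ± 0.0894, adjusted p = 0.00162), Ahcy (-0.30 ± 0.0687, adjusted p = 0.00365) and Mat2a (-0.26 ± 0.0871, adjusted p = 0.0317) were lower as well, though under median-of-ratios scaling neither Ahcy (adjusted p = 0.0553) nor Mat2a (0.161) was called. Nnmt differed by -0.42 ± 0.168 with groups that did not overlap, but with adjusted p = 0.067. Pemt (-0.25 ± 0.143, adjusted p = 0.198) and Mat2b (0.01 ± 0.0825, adjusted p = 0.912) did not pass. No gene of the 7 was called higher and 4 were called lower, beside 14.0% and 26.2% of all features, 40.2% in all. Groups did not overlap for 5 of 7, against 55.1% of features, and none of the 7 was called with a 2-fold difference, against 5.86% of features. Under median-of-ratios scaling the 1843 higher and 3458 lower calls over all features became 2466 and 2547.

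Several of these SVC calls sit near the threshold. Mat2a lost its call without IAT SVC replicate 1 (adjusted p = 0.0899) or 2 (0.0854) and without EAT SVC replicate 1 (0.0991) or 3 (0.114). Nnmt gained one without EAT adipocyte replicate 1 (adjusted p = 0.000564) or 2 (0.0376), libraries that are not in the contrast but enter the shared estimate of spread, and in a fit of the SVC groups alone (0.00339). The cell mix of the SVCs also differed between depots: the summed level of 7 macrophage genes was 1452 to 1575 FPKM in IAT SVCs and 3115 to 3228 FPKM in EAT SVCs. For 8 mesothelial genes it was 1.76 to 2.78 FPKM in IAT SVCs and 430 to 500 FPKM in EAT SVCs. For 10 fibroblast genes it was 6391 to 6524 FPKM in IAT SVCs and 5032 to 5785 FPKM in EAT SVCs, but these genes were divided. By mean, Pi16, Col1a1, Col3a1, Mmp2 and Ly6a were higher in IAT SVCs, and Pdgfra, Dpp4, Dcn, Fbn1 and Cd34 were lower. Other sums were higher in IAT SVCs. For 5 T cell genes the sum was 90.1 to 142 FPKM in IAT SVCs and 23.1 to 24.3 FPKM in EAT SVCs. For 4 B cell genes it was 147 to 225 FPKM in IAT SVCs and 36.8 to 40.2 FPKM in EAT SVCs. For 5 skeletal muscle genes it was 46.6 to 58.7 FPKM in IAT SVCs and 2.25 to 2.77 FPKM in EAT SVCs. The part of all these cells in the SVC differences was not tested. In bulk samples, fewer cells of a type and less RNA per cell cannot be told apart.

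In adipocytes, 3 of the 7 had groups with no overlap between the depots, namely Inmt, Aox1 and Mat2b, each lower in IAT. Of all features, 48.3% had no overlap, and 10.3% were called higher and 27.3% lower, 37.6% in all (1363 and 3597 features, which became 2124 and 2197 under median-of-ratios scaling). At 2-fold or more stood Inmt alone of the 7, and 4.12% of features were called at that size. Nothing is read from these counts, since the contrast helped choose the genes. Aox1 averaged 25.5 ± 1.24 FPKM in IAT adipocytes and 37.5 ± 4.37 FPKM in EAT adipocytes (-0.53 ± 0.0894). The others differed by 0.15 ± 0.168 (Nnmt), -0.14 ± 0.143 (Pemt), -0.04 ± 0.0687 (Ahcy) and 0.13 ± 0.0871 (Mat2a). Over the alternatives Nnmt ran between -0.0085 (without EAT adipocyte replicate 2) and 0.40 (without EAT adipocyte replicate 1), Pemt between -0.26 (without EAT adipocyte replicate 2) and 0.02 (with array weights) and Ahcy between -0.08 and 0.09, so that these 3 have no settled direction. Mat2a stayed between 0.07 and 0.27. The median of all features was -0.10 in this contrast and -0.06 in SVCs. Set beside the depot difference in SVCs, that of Inmt in adipocytes was lower by 3.18 ± 0.153 on the log2 scale, and for the others the 2 depot differences lay within 0.57 of each other.

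The balance of the 3 methyltransferases changed with the group. The ratio of Nnmt to Inmt was 27.1, 35.6 and 30.7 in IAT adipocytes and 2.64, 1.32 and 1.73 in EAT adipocytes. In SVCs it was 0.0519, 0.0578 and 0.0617 in IAT and 0.0486, 0.0488 and 0.0527 in EAT. Nnmt made up 92.9% to 93.8% of the summed FPKM of Inmt, Nnmt and Pemt in IAT adipocytes and 55.5% to 70.5% in EAT adipocytes. Inmt made up 93.5% to 94.4% of it in IAT SVCs and 94.5% to 94.8% in EAT SVCs. The sum itself was 351 ± 18.7 FPKM in IAT adipocytes, 482 ± 101 in EAT adipocytes, 246 ± 24.7 in IAT SVCs and 377 ± 33.3 in EAT SVCs (SD, n = 3 each). Per unit of Ahcy, Inmt stood at 0.975 ± 0.0887 in IAT adipocytes, against 14.5 ± 2.11 in EAT adipocytes, 13.2 ± 1.45 in IAT SVCs and 16.3 ± 1.17 in EAT SVCs. IAT adipocytes lay far below each of the others in this ratio.

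Because Inmt was high in SVCs, its adipocyte level was set beside the levels of markers of other cells in the adipocyte libraries. In IAT adipocytes the median fibroblast marker had 3.61% of its SVC level (2.36% to 8.57%), the median macrophage marker 4.17% and the median endothelial marker 18.1%. Inmt, at 4.60%, lay within that range, with 21 of 38 markers of other cells below it and 17 at or above. These counts, here and for EAT, hold markers with at least 1 FPKM in SVCs and leave out skeletal muscle and liver. Of the muscle markers in IAT, Acta1 was at 102% of its SVC level (24.8 against 24.3 FPKM), and the other 4 lay under 50%. In EAT, the medians were 3.38% for fibroblasts (0.84% to 12.2%), 12.6% for macrophages, 17.5% for endothelium, 4.68% for mesothelium and 8.80% for mural cells. Inmt, at 45.5%, lay above 44 of 45 markers, the exception being Acta2, a contractile gene of mural cells, at 77.7%. The summed levels in IAT adipocytes, then EAT adipocytes, were 334 to 395 and 263 to 291 FPKM for fibroblasts, 70.0 to 87.7 and 340 to 399 FPKM for macrophages, and 0.504 to 0.617 and 18.8 to 21.6 FPKM for mesothelium. Within the fibroblast list, Dpp4, Dcn and Cd34 had higher means in EAT adipocytes and the others lower. The place of Inmt among the markers is a description only, since its adipocyte values selected it. What part such cells had in the Inmt values was not tested.

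**Figure D3:**
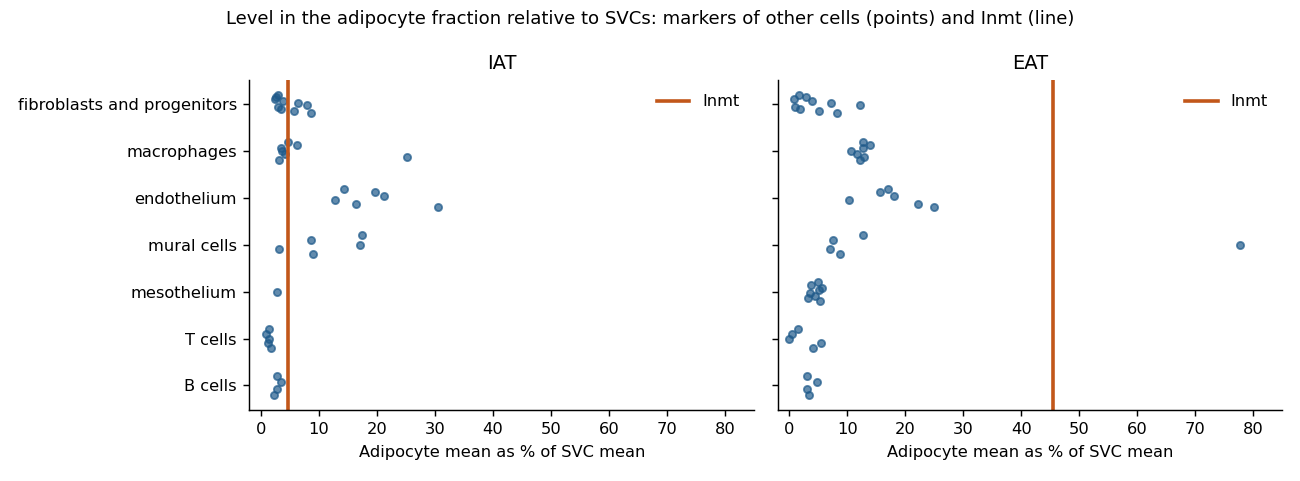
Adipocyte mean as a percentage of the SVC mean for single markers of other cell types (points, 1 row per cell type) and for Inmt (vertical line), in IAT and in EAT. Skeletal muscle and liver markers are left out. Inmt lies among the markers in IAT, at 4.60%, and above 44 of 45 of them in EAT, at 45.5%, both described with no test.

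The reverse was looked at for the adipocyte-rich genes. As a share of the adipocyte level, the median adipocyte marker had 0.825% in IAT SVCs (0.329% to 5.35%) and 0.322% in EAT SVCs (0.0952% to 4.67%). Nnmt in SVCs was at 3.99% in IAT, within that range, and at 5.85% in EAT, just above it. Pemt was at 14.9% in IAT and 17.2% in EAT, and Aox1 at 18.0% in IAT and 17.5% in EAT, above every adipocyte marker in the list. Liver markers were traced for a different reason, as Pemt and Aox1 are abundant in liver: 5 of them summed to 25.8 to 35.3 FPKM in IAT adipocytes and 9.14 to 11.2 FPKM in EAT adipocytes, nearly all from Alb in IAT (29.2 FPKM), and under 1 FPKM in SVCs.

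Features whose 4 group means ran most like those of Inmt, by the root mean square difference of centred log2 values, were Emilin2 (0.385), Ccl4 (0.456), Ctss (0.578) and Wfdc17 (0.588). Emilin2 averaged 2.09 FPKM in IAT adipocytes and 21.7 in EAT adipocytes, against 59.5 in IAT SVCs and 80.1 in EAT SVCs. Ccl4 and Ctss, a chemokine and a lysosomal protease of macrophages, were likewise lowest in IAT adipocytes, at 1.57 and 8.996 FPKM. All 4 fell further than Inmt between SVCs and EAT adipocytes, so none was a close match. Nnmt had closer ones: Bnip3 (0.115), a mitophagy receptor, at 310.0 and 345 FPKM in IAT and EAT adipocytes and 12.9 and 17.6 FPKM in IAT and EAT SVCs, then Dbi (0.130) and Mlxipl (0.147), the sugar-responsive factor ChREBP. For Aox1 they were Chst1 (0.0187), at 49.95 and 73.4 FPKM in IAT and EAT adipocytes and 10.02 and 13.5 FPKM in IAT and EAT SVCs, Sdsl (0.0311), Laptm4b (0.056) and Pgd (0.0589), an enzyme of the pentose phosphate pathway. These are likenesses over 4 group means only, with no test.

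The wider pathway was followed through 9 lists of 154 genes that hold none of the 7, of which 130 passed the filter. For fraction in IAT, 64 (49.2%) were called higher in adipocytes and 46 (35.4%) lower, against 29.8% and 53.9% of all features. In EAT it was 66 (50.8%) higher and 48 (36.9%) lower, against 31.1% and 52.7%. For depot in adipocytes, 16 (12.3%) were called higher in IAT and 32 (24.6%) lower, and in SVCs 18 (13.8%) higher and 36 (27.7%) lower. These depot shares are near those of all features, 10.3% and 27.3% in adipocytes and 14.0% and 26.2% in SVCs. The depot difference itself differed between the fractions (interaction) for 47 of them, 26 higher and 21 lower in adipocytes than in SVCs, beside 14.7% and 17.8% of all features, 32.5% in all. The shares over all features given here are the background for the counts of each list below, and the lists were chosen with earlier results known. Genes were named within each list by the size of the called difference, up to 3 per comparison, and a part of them is given here.

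**Figure D4:**
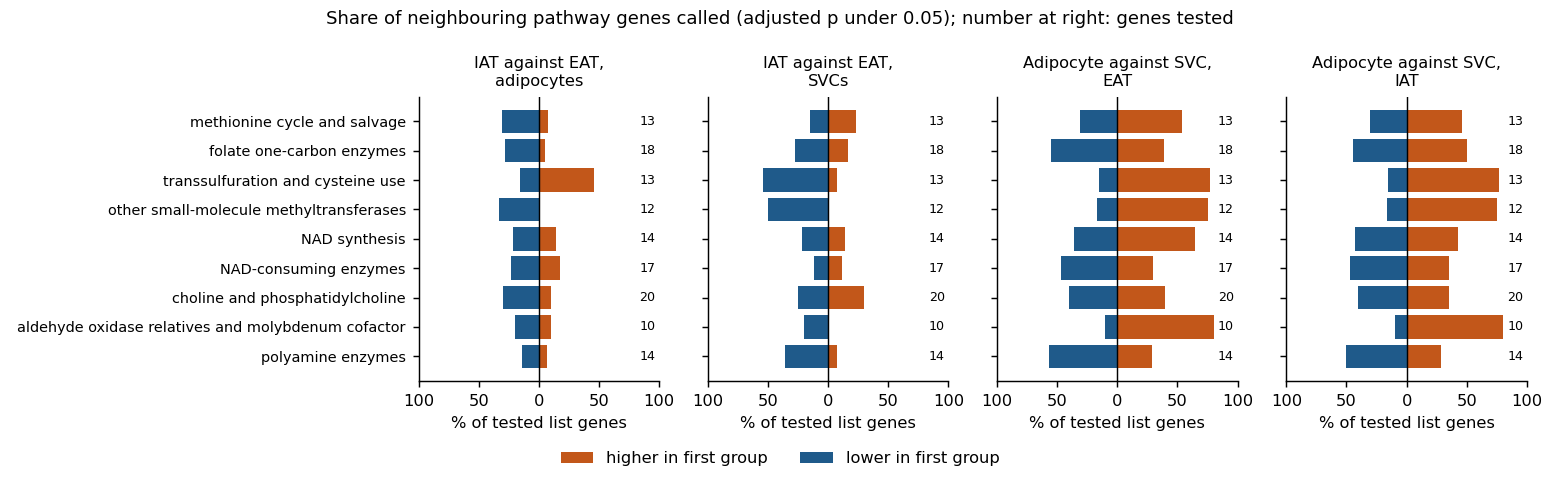
Percentage of the tested genes of each of the 9 lists called higher (to the right) or lower (to the left) in the group named first, for depot in adipocytes, depot in SVCs, fraction in EAT and fraction in IAT, with the number tested at the right. Other methyltransferases and transsulfuration lean to adipocytes, with 9 of 12 and 10 of 13 genes called higher in adipocytes in EAT and as many in IAT. Of all features, 31.1% were called higher in EAT and 29.8% in IAT.

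Other methyltransferases leaned to adipocytes as Nnmt and Pemt did. Of 12 tested, 9 were called higher and 2 lower in each depot. Over all features 29.8% were higher and 53.9% lower in IAT, and 31.1% and 52.7% in EAT. The median log2 difference of the list was 1.47 in IAT and 1.39 in EAT, against -0.34 and -0.31 over all features. Hnmt, which methylates histamine, averaged 29.1 ± 2.00 FPKM in IAT adipocytes and 4.42 ± 0.343 FPKM in IAT SVCs (2.47 ± 0.0928, adjusted p = 4.24e-11). Gamt, which makes creatine, averaged 65.0 ± 12.4 FPKM in EAT adipocytes and 11.3 ± 2.00 FPKM in EAT SVCs (2.41 ± 0.135, adjusted p = 2.05e-09). Between depots 4 of 12 were called lower in IAT adipocytes, where 27.3% of all features were, and 6 of 12 in IAT SVCs, where 26.2% were, with none higher. Under median-of-ratios scaling it was 4 lower and 1 higher in adipocytes and 3 lower in SVCs, and under TPM 8 were lower in SVCs. Gamt fell to 38.5 ± 2.96 FPKM in IAT adipocytes, against 65.0 ± 12.4 FPKM in EAT adipocytes (-0.72 ± 0.135, adjusted p = 0.00124). Asmt, Pnmt and Gnmt were among the 4 genes of this list that did not pass the filter.

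Transsulfuration and cysteine use, the path that takes homocysteine out of the cycle, leaned to adipocytes as well. Here 10 of 13 were called higher and 2 lower in each depot, with medians of 1.42 in IAT and 1.25 in EAT. Of all features, 29.8% were called higher and 53.9% lower in IAT, and 31.1% and 52.7% in EAT. Cdo1, which oxidises cysteine on the way to taurine, was at 859 ± 65.5 FPKM in IAT adipocytes and 13.2 ± 1.53 FPKM in IAT SVCs (5.93 ± 0.0923, adjusted p = 4.16e-14). EAT adipocytes had 1344 ± 88.9 FPKM, against 7.70 ± 0.363 FPKM in EAT SVCs (7.27 ± 0.0923, adjusted p = 5.49e-15). Its depot difference was negative in adipocytes (-0.65 ± 0.0923, adjusted p = 0.000163) and positive in SVCs (0.70 ± 0.0923, adjusted p = 5.69e-05). Tst, the sulfur transferase rhodanese, did the opposite. It was at 67.6 ± 1.71 FPKM in IAT adipocytes and 24.7 ± 4.39 FPKM in EAT adipocytes (1.43 ± 0.127, adjusted p = 2.81e-06), and at 3.79 ± 0.596 FPKM in IAT SVCs and 6.30 ± 0.844 FPKM in EAT SVCs (-0.61 ± 0.127, adjusted p = 0.002). In the list as a whole 6 were higher and 2 lower in IAT adipocytes, and 1 higher and 7 lower in IAT SVCs. The shares over all features were 10.3% and 27.3% in adipocytes and 14.0% and 26.2% in SVCs.

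The methionine cycle and salvage genes were mixed. Of 13 tested, 6 were called higher and 4 lower in adipocytes in IAT, and 7 higher and 4 lower in EAT. Got1, a cytosolic aminotransferase, averaged 3.95 ± 0.602 FPKM in EAT adipocytes and 45.7 ± 2.93 FPKM in EAT SVCs (-3.24 ± 0.104, adjusted p = 1.06e-11). Apip and Adi1, of the methionine salvage path, went the other way. Apip was at 45.3 ± 0.555 FPKM in IAT adipocytes and 8.77 ± 1.03 FPKM in IAT SVCs (2.25 ± 0.142, adjusted p = 7.38e-09). Ahcyl2, a relative of AHCY, was lower in IAT in both fractions, at 33.2 ± 1.52 FPKM in IAT adipocytes and 46.0 ± 5.05 FPKM in EAT adipocytes (-0.45 ± 0.0977, adjusted p = 0.00328). Bhmt, which remethylates homocysteine with betaine in liver, and its relative Bhmt2 did not pass the filter.

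Of 18 folate genes tested, 9 were called higher and 8 lower in adipocytes in IAT, and 7 higher and 10 lower in EAT. Aldh1l1, which oxidises formyl-tetrahydrofolate, was at 94.7 ± 2.06 FPKM in IAT adipocytes and 4.17 ± 1.02 FPKM in IAT SVCs (4.23 ± 0.116, adjusted p = 2.61e-12). Folr2, a folate receptor of resident macrophages, had the largest depot difference of the list in adipocytes, with 6.44 ± 0.567 FPKM in IAT against 34.7 ± 2.28 FPKM in EAT (-2.27 ± 0.0826, adjusted p = 7.09e-10). The macrophage sums given above moved with it, and their part was not tested. In all, 1 folate gene was higher and 5 were lower in IAT adipocytes, and 3 were higher and 5 lower in IAT SVCs. Folr1, another folate receptor, was at 0.042 ± 0.0142 FPKM in IAT SVCs and 2.07 ± 0.334 FPKM in EAT SVCs (-1.55 ± 0.0712, adjusted p = 2.92e-09), beside mesothelial sums that were also far lower in IAT, whose part was not tested.

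The NAD synthesis list, in which Nampt shares nicotinamide with Nnmt, was split. Of 14 tested, 6 were called higher and 6 lower in adipocytes in IAT, and 9 higher and 5 lower in EAT. Kmo and Haao, of the kynurenine path from tryptophan, were lower in adipocytes, with Kmo at 0.0819 ± 0.00532 FPKM in IAT adipocytes and 3.29 ± 0.300 FPKM in IAT SVCs (-1.98 ± 0.0737, adjusted p = 3.86e-11). Nampt, which recycles nicotinamide and is named here for that role after its values were seen, was at 29.4 FPKM in IAT adipocytes and 30.7 FPKM in EAT adipocytes (-0.06 ± 0.0909, adjusted p = 0.645). Nmnat3, a mitochondrial enzyme of NAD synthesis, was higher in IAT adipocytes, with 7.76 ± 0.443 FPKM in IAT against 5.52 ± 0.0994 FPKM in EAT (0.42 ± 0.0715, adjusted p = 0.000593). Nnt, the transhydrogenase in which C57BL/6J mice carry a deletion, was lower there, with 2.81 ± 0.168 FPKM in IAT against 7.07 ± 0.602 FPKM in EAT (-1.08 ± 0.0773, adjusted p = 3.77e-07). Altogether 2 were higher and 3 lower in IAT in adipocytes, and as many in SVCs.

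Of 17 NAD-consuming genes, 6 were called higher and 8 lower in adipocytes in IAT, and 5 higher and 8 lower in EAT. Cd38, an NAD glycohydrolase of immune cells, was at 3.15 ± 0.291 FPKM in IAT adipocytes and 25.7 ± 0.349 FPKM in IAT SVCs (-2.69 ± 0.0955, adjusted p = 2.55e-11). Sirt3, the mitochondrial deacetylase, was at 15.6 ± 0.564 FPKM in IAT adipocytes and 10.7 ± 0.750 FPKM in EAT adipocytes (0.50 ± 0.0906, adjusted p = 0.000961). Between depots 3 were higher and 4 lower in IAT adipocytes, and 2 higher and 2 lower in IAT SVCs. That balance moved with the scaling, to 5 higher and 2 lower in adipocytes and 5 higher and 1 lower in SVCs under median-of-ratios scaling, and to 0 higher and 2 lower in SVCs under TPM.

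Choline and phosphatidylcholine genes, around the reaction of Pemt, had 7 of 20 called higher and 8 lower in adipocytes in IAT, and 8 higher and 8 lower in EAT, which became 12 higher and 5 lower in either depot under median-of-ratios scaling. Chpt1, the last enzyme of phosphatidylcholine synthesis from choline, was far above Pemt per length, at 522 ± 17.7 FPKM in IAT adipocytes and 667 ± 17.9 FPKM in EAT adipocytes, against 16.3 ± 0.591 FPKM in IAT SVCs and 12.8 ± 0.752 FPKM in EAT SVCs. Its fraction differences were 4.92 ± 0.0674 in IAT (adjusted p = 1.83e-14) and 5.60 ± 0.0674 in EAT (adjusted p = 4.11e-15). Chdh, which turns choline into the methyl source betaine, was at 11.3 ± 0.894 FPKM in IAT adipocytes and 5.26 ± 2.25 FPKM in EAT adipocytes (1.05 ± 0.207, adjusted p = 0.00189). Between depots 2 were higher and 6 lower in IAT adipocytes, which became 4 and 10 without EAT adipocyte replicate 1, and 6 were higher and 5 lower in IAT SVCs.

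Aldehyde oxidase relatives and enzymes of the molybdenum cofactor that AOX1 needs mostly ran with Aox1. Called higher in adipocytes were 8 of 10, and 1 lower, in each depot, with medians of 1.21 in IAT and 0.97 in EAT. Shares over all features were 29.8% higher and 53.9% lower in IAT, and 31.1% and 52.7% in EAT. Mocs1 and Mocs2, which build the cofactor, were higher in IAT adipocytes, with Mocs2 at 61.1 ± 3.27 FPKM in IAT adipocytes and 13.5 ± 0.694 FPKM in IAT SVCs (2.10 ± 0.109, adjusted p = 9.78e-10). Aox3, a close relative of Aox1, did not: it was at 0.132 ± 0.0479 FPKM in EAT adipocytes and 5.88 ± 0.143 FPKM in EAT SVCs (-2.60 ± 0.0694, adjusted p = 2.17e-12). IAT SVCs had 1.74 ± 0.237 FPKM, against that 5.88 ± 0.143 FPKM in EAT SVCs (-1.33 ± 0.0694, adjusted p = 9.79e-09). In this list 1 was higher and 2 lower in IAT adipocytes, and none higher and 2 lower in IAT SVCs.

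Polyamine genes, of a pathway that uses decarboxylated SAM, were called about as often as all features. Of 14 tested, 4 were higher and 7 lower in adipocytes in IAT, and 4 higher and 8 lower in EAT. Their medians were -0.72 in IAT and -0.68 in EAT, against -0.34 and -0.31 over all features. Sat1, which acetylates spermidine and spermine for export, was at 111 ± 29.3 FPKM in EAT adipocytes and 408 ± 29.0 FPKM in EAT SVCs (-1.89 ± 0.141, adjusted p = 3.79e-08). Amd1 and Amd2, which decarboxylate SAM, have overlapping, near-identical models between which the split of reads is uncertain. Their sum was 14.3 ± 0.580 FPKM in IAT adipocytes and 19.5 ± 3.68 FPKM in EAT adipocytes, against 70.6 ± 4.09 FPKM in IAT SVCs and 40.8 ± 4.04 FPKM in EAT SVCs. Between depots 1 was higher and 2 lower in IAT adipocytes, and 1 higher and 5 lower in IAT SVCs.

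The sign of the median by fraction was the same under TPM, median-of-ratios and quantile scaling for other methyltransferases, transsulfuration, molybdenum cofactor genes and polyamine genes. For the NAD-consuming and choline lists, and for folate in EAT, the sign of the median changed with the scaling, so no direction is given for them.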

How the data were processed

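RNA sequencing was analysed in 12 libraries of 4 groups. The authors deposited 1 table per library with gene values in FPKM and confidence bounds in the same unit. Per the submitters' processing notes TopHat, Cufflinks and mm10 (GRCm38) were used; versions, settings and annotation are not given in the sources used here. The tables hold no counts, so fragments behind a value were estimated from the bounds, taken as 2 standard deviations of a count. That reading is rough, since Mat2a gave 1703 to 1971 fragments in every library, with little regard to depth. The bounds may hold more than counting error, and they do not cover the spread between libraries. FPKM carries no correction for library composition.

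Of 24890 features, 9 with a failed estimate were left out, and symbols at several loci (273) were kept apart. Features at 1 FPKM or above in 3 or more libraries (13175) were fitted as log2(FPKM + 1) with limma 3.58.1 (lmFit, eBayes with trend; R 4.3.3) to 4 group means with no block. A feature was called at an adjusted p under 0.05 (Benjamini-Hochberg over all 13175, two-sided tests). Log2 differences understate changes of low genes, because of the pseudocount of 1. The procedure was tested on simulated data. No 2 libraries held identical values.

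The members, the 9 pathway lists and the marker lists were chosen with earlier results of these data known. Named genes were the 7 members and, per list and comparison, up to 3 called genes with the largest difference and a mean of at least 2 FPKM in the higher group. Of the 4 nearest features, those of Inmt and Aox1 were all named, and 1 of Nnmt and 1 pathway gene are not reported here. Alternatives (23) were other pseudocounts, filters, scalings, fits and leaving out each library. Promoter letters are from RefSeq GRCm38.p6, overlaps from GENCODE vM21. Tables and plots used Python 3.11.15, pandas 2.3.3, NumPy 2.4.6 and matplotlib 3.10.9.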

Additional observations from a re-analysis of the deposited data

Results flagged for a closer look

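For 36 of the 61 named pathway genes the depot difference (IAT minus EAT, log2) differed between adipocytes and SVCs by limma's interaction term, with adjusted p from 2.22e-07 to 0.0472; 32.5% of all features did so. These genes had been named for large differences in the single comparisons, including the depot ones this term is built from. The choice therefore raised their share, and nothing is read from it. Of all 130 list genes tested, 26 (20.0%) were called higher and 21 (16.2%) lower, against 14.7% and 17.8% of all features. Values below are the adipocyte depot difference minus the SVC one, followed in brackets by the depot difference in adipocytes and that in SVCs. Where both groups of a fraction lay under 1 FPKM, the pseudocount of 1 flattens the difference there. A small value then does not mean that the depots are alike. In adipocytes this holds for Folr1 (0.0332 FPKM in IAT, 0.136 in EAT), Aox3 (0.0648 and 0.132), Oaz3, Kmo and Tdo2. In SVCs it holds for Cth (0.126 and 0.483), Mettl7b, Chdh and Marc1. No cause was tested.

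The sulfur gene Tst had the largest positive value, at 2.04 (1.43 and -0.61), and Cdo1 was negative, at -1.35 (-0.65 and 0.70). Others of transsulfuration and cysteine use were Suox at 0.77 (0.40 and -0.37), Gclc at 0.56 (-0.22 and -0.78), Csad at 0.55 (0.47 and -0.07), Cth at 0.51 (0.11 and -0.40) and Ethe1 at 0.49 (0.54 and 0.04). In this list 6 of 7 were positive. Of all 13 genes of the list, 9 were called higher and 1 lower, against 14.7% and 17.8% of all features.

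Among folate genes, Folr2 was at -1.76 (-2.27 and -0.51), Folr1 at 1.42 (-0.14 and -1.55), Mthfd2 at -1.02 (-0.82 and 0.20) and Mthfs at 0.84 (0.22 and -0.63). Among other methyltransferases, Mettl7b was at -1.12 (-1.05 and 0.07), Gamt at -0.75 (-0.72 and 0.03), Hnmt at 0.62 (0.12 and -0.50) and Mettl7a1 at 0.35 (-0.22 and -0.58).

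Of the choline list, Slc44a2 was at -1.16 (-0.65 and 0.51), Chdh at 0.93 (1.05 and 0.11), Slc44a1 at 0.91 (0.14 and -0.77), Chpt1 at -0.68 (-0.35 and 0.33) and Pcyt1a at 0.42 (-0.28 and -0.70). Of NAD genes, Nnt was at -0.66 (-1.08 and -0.43), Sirt3 at 0.59 (0.50 and -0.09), Nmnat3 at 0.57 (0.42 and -0.14), Tnks2 at -0.46 (-0.36 and 0.10), Cd38 at -0.45 (-0.34 and 0.10), Nadk at 0.35 (-0.06 and -0.40), Kmo at -0.34 (-0.30 and 0.05) and Tdo2 at -0.32 (-0.30 and 0.03).

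Of polyamine genes, Oaz3 was at 1.25 (0.02 and -1.23), Amd2 at -1.12 (-0.37 and 0.75), Sms at -1.08 (-0.93 and 0.15), Sat1 at 0.84 (0.19 and -0.65) and Paox at 0.65 (0.32 and -0.33). Of molybdenum genes, Aox3 was at 1.25 (-0.09 and -1.33) and Marc1 at -0.76 (-0.94 and -0.19). Mtap, of methionine salvage, was at -0.55 (-0.33 and 0.22).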

How the results depend on the processing

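Of the 7 genes, Inmt kept its call in the SVC depot comparison under all 23 alternatives, as did Aox1 there and in both fraction comparisons, and Nnmt, Pemt and Ahcy in both fraction comparisons. Directions turned for Mat2a in the EAT fraction comparison (0.28) and Mat2b in the IAT one (0.17) under median-of-ratios scaling. Ahcy lost its SVC depot call under that scaling (adjusted p = 0.0553), and Mat2a under it (0.161) and under quantile scaling (0.178). Pemt gained that call under TPM (0.0385), and Nnmt gained it under TPM (0.00322), quantile scaling (0.025) and array weights (0.00884). By fraction, Mat2a lost its IAT call under quantile scaling (0.305) and Mat2b its IAT call under TPM (0.142) and quantile scaling (0.106), while Mat2b gained one in EAT under TPM, median-of-ratios and quantile scaling (0.000106 to 0.00978). The adipocyte depot difference of Ahcy, not tested, was 0.09 under median-of-ratios scaling against -0.04. Over all features, depot calls in adipocytes numbered 1363 higher and 3597 lower, against 2124 higher and 2197 lower under median-of-ratios scaling and 2137 lower under quantile scaling. SVC depot calls higher in IAT numbered 1843, against 2876 under quantile scaling. Leaving out each library gave 40 to 67 called pathway genes for depot in adipocytes and 42 to 63 in SVCs. Of 107 named pathway results, 11 lost a call under at least 1 alternative and 0 changed direction. Deviations of same-numbered libraries correlated at r from -0.31 to 0.37, with both signs present, which does not establish a pairing. With the replicate block, 45 pathway genes were called for depot in adipocytes (48 without it) and 49 in SVCs (54 without it). The confidence bounds are widest for Pemt, up to 39.6% from its values.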
